A study of Homo sapiens with 6 samples.

Results

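The genes described here are 41 of the 57820 rows of a gene count table, taken by their symbols: 19 encode lysosomal proteins, 19 encode proteins of the autophagy machinery, and 3 encode TFEB, TFE3 and MITF. All 41 had a row, and all 41 passed the filter on low counts that 17225 genes passed. Lysosomes break down cargo with acid hydrolases, and macroautophagy is a route that brings cytosolic cargo to them. A membrane cup closes around the cargo as the autophagosome, its membrane carries lipid-anchored proteins of the ATG8 family, and the vesicle then fuses with a lysosome, whose lumen is kept acidic by the proton pump V-ATPase. The basic helix-loop-helix factors TFEB, TFE3 and MITF bind a sequence named CLEAR in promoters of many lysosomal genes, and the kinase complex mTORC1 on the lysosome surface holds them in the cytosol when nutrients are ample.

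The table holds total RNA from HEK293 (ATCC CRL-1573), an established cell line of human embryonic kidney origin. Cells were given 100 µM minocycline, a tetracycline antibiotic, for 12 h (minocycline replicates 1, 2 and 3) or DMSO vehicle for the same time (control replicates 1, 2 and 3), and neither group was heat shocked. The labels give the replicate number as the batch as well, and the series calls the 3 libraries of each group biological replicates. The comparison asks how transcript abundance differed after the drug, and here whether lysosome and autophagy genes differed in the same way.

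Total counts were 17303180 to 17835756 per library. Of the HEK293 markers checked, VIM, KRT8, KRT18, NEFM and INA were present in every library, and of 9 measured markers of other cell types PTPRC, CD3E, ALB and MYH7 had at most 4 counts in any library. CD14, VWF, COL3A1 and DES had 10 to 53 counts, and their groups overlapped. COL1A1 had 53.0 to 70.0 CPM (counts scaled for sequencing depth) with minocycline and 72.8 to 81.1 CPM in controls, and its part in the results was not tested. Libraries of 1 group did not group together on the first principal component, which held 52.9% of the variance. Minocycline replicates 1, 2 and 3 had -14, -32.3 and 3.1 on it, and control replicates 1, 2 and 3 had -34.9, 31.1 and 47.1. The 85 ribosomal protein genes, whose share ran in nearly the same order, took 8.32%, 7.33% and 10.8% of counts in minocycline replicates 1, 2 and 3, and 7.39%, 11% and 12.2% in control replicates 1, 2 and 3. Control replicate 1 thus lay beside minocycline libraries on both measures, and its part in the results below was not tested beyond leaving it out.

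No lysosome or autophagy gene passed the test. In edgeR's quasi-likelihood test, with Benjamini-Hochberg adjustment over 17225 genes, 9 genes had an adjusted p under 0.05, which is 0.0522% of those tested, and 0 of the 41 genes were among them, with adjusted p from 0.82 to 0.988. DESeq2 and limma-voom called 0 of the 41 as well. The lysosome genes nevertheless lay mostly above 0. Of these 19, 16 had a higher fitted level with minocycline and 3 a lower one, with a median log2 fold change of 0.25. Of the 19 autophagy genes, 7 had a higher fitted level and 12 a lower one, with a median of -0.03, and TFEB, TFE3 and MITF had lower ones, with a median of -0.14. Over all genes tested, 52.1% had a higher fitted level and the median was 0.01. With library size scaling the median of all genes was 0.08, with 18 lysosome genes higher, 12 autophagy genes higher and an autophagy median of 0.03, still under that of all genes. Over 17 alternative settings the number with a higher level was 14 to 18 for lysosome genes and 4 to 12 for autophagy genes. In bulk RNA, fewer cells with a transcript and less of it per cell cannot be told apart.

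**Figure D1:**
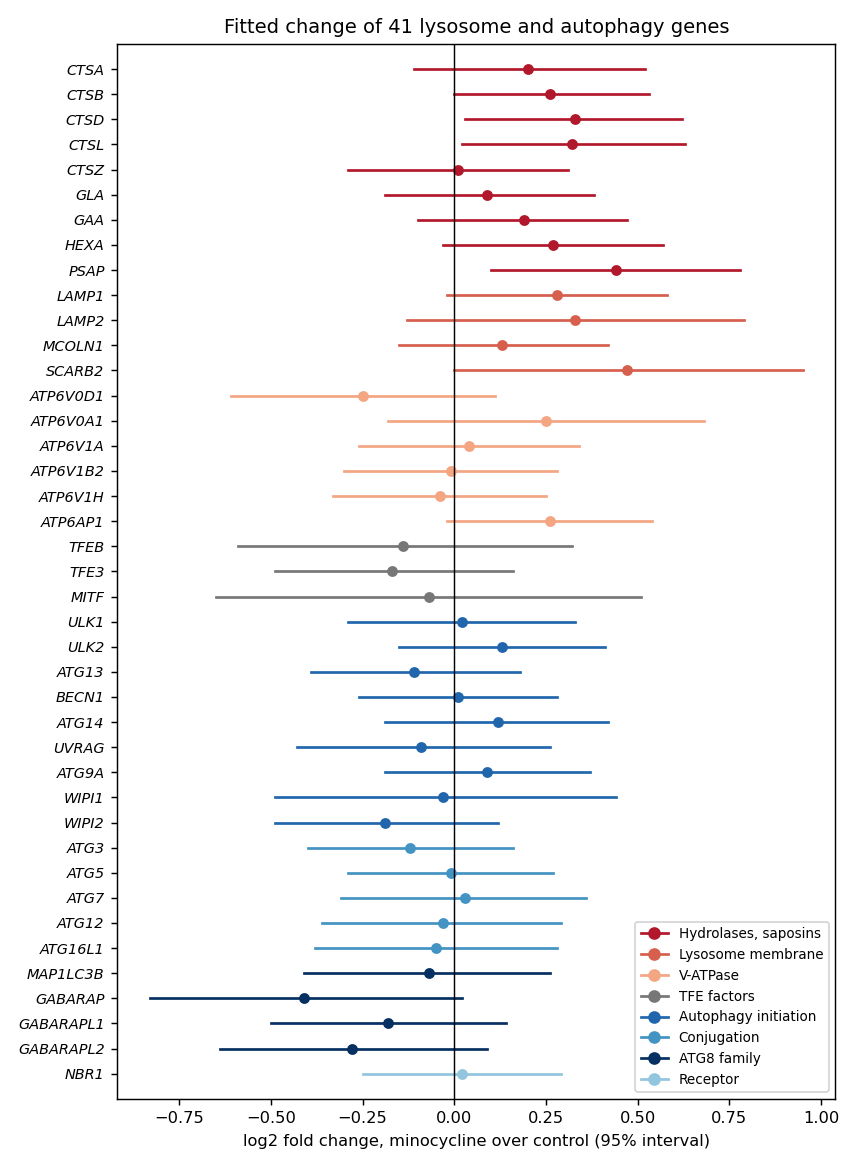
Fitted log2 fold change, minocycline over control, of each of the 41 genes (points) with its 95% interval (lines, not adjusted for the number of genes), coloured by role. The 13 hydrolase, saposin and membrane genes lie at or above 0.01 and the 4 ATG8 genes from -0.41 to -0.07; CTSZ took the opposite sign in 6 of 17 alternatives and MAP1LC3B in 1.

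At an unadjusted p under 0.05, 3 of the 41 genes were higher (CTSD, CTSL and PSAP) and 0 were lower, where 2.72% and 1.97% of all genes tested were. Every minocycline value exceeded every control value in 8 of the 41, all of them lysosome genes, and was below every control value in 1, ATG3; among all genes tested 5.74% lay above and 3.56% below. The 95% interval of the log2 fold change, not adjusted for the number of genes, stayed within a 1.5-fold change in either direction (0.585 on the log2 scale) for 30 of the 41, comprising 17 of 19 autophagy genes, 12 of 19 lysosome genes and 1 of the 3 TFE factors. In 36 of the 41 genes the highest and lowest control libraries lay further apart than the means of the groups. Neither this count nor that of the intervals was made over all genes, so they do not set the 41 apart.

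Promoter sequences are shown because the CLEAR element is the sequence that ties many lysosomal genes to the TFE factors. RefSeq promoter windows (GRCh38.p14, 250 bases before to 50 after the start) matched 33 of the 41 genes, and none was given for CTSB, HEXA, PSAP, LAMP2, ATP6V1A, ATP6V1B2, ATP6V1H and UVRAG. The letters GTCACGTG, searched on both strands, contain the shorter E-box CACGTG. They occurred in windows of 6 of 12 lysosome genes, 2 of 18 autophagy genes and 0 of the 3 TFE factors, and in 5.05% of the 11867 tested genes that had a window. In the other lists described further below, they occurred for 2 of 19 hydrolases, 4 of 21 lysosomal membrane and sorting genes and 2 of 9 V-ATPase genes. They also occurred for 2 of 19 autophagy machinery genes, 0 of 11 receptor genes and 5 of 19 mTORC1 genes there, so the share of 6 of 12 was not that of lysosomal genes at large. The element TGATGNAA, which is the form bound by ATF4 with its partners, occurred in 0 of the 33 and in 2.8% of the 11867. For each gene with a match, 1 stretch of its promoter around the matches follows, 5′ to 3′ on the strand of the gene, with the matches in capitals. GAA, LAMP1 and ATG3 had further matches that are not printed.
CTSA: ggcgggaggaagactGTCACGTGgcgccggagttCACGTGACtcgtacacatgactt
CTSD: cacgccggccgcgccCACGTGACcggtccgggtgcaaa
GAA: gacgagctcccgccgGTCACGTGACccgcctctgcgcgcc
LAMP1: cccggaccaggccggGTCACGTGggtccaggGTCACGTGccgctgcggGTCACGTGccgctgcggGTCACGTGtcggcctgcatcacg
MCOLN1: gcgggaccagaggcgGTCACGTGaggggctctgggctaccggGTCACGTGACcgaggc
ATP6V0D1: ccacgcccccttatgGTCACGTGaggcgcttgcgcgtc
ATG14: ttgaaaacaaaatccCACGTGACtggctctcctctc
ATG3: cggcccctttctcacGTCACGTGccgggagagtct

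In GRCh38.p14 these windows are chr20:45891276-45891332 on the plus strand for CTSA, chr11:1763952-1763989 on the minus strand for CTSD and chr17:80101533-80101572 on the plus strand for GAA. They are chr13:113297030-113297117 on the plus strand for LAMP1, chr19:7522566-7522623 on the plus strand for MCOLN1 and chr16:67481196-67481233 on the minus strand for ATP6V0D1. Those of ATG14 and ATG3 are chr14:55411831-55411866 and chr3:112561963-112561997, both on the minus strand. The LAMP1 window holds 4 copies in a row, the first of them 194 bases before the start, and in the GAA and MCOLN1 windows a match reads as GTCACGTGAC, the same on both strands. The 6 lysosome genes with the element had log2 fold changes from -0.25 (ATP6V0D1) to 0.33 (CTSD), and the 6 with a window and no match had 0.01 (CTSZ) to 0.47 (SCARB2), ranges that overlap. ATG14 showed 0.12 ± 0.14 (SE) and ATG3 -0.12 ± 0.13. A match describes the letters of the window and is not a measured binding site.

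All 9 hydrolase and saposin genes had a higher fitted level with minocycline, from 0.01 for CTSZ, whose sign was the opposite in 6 of 17 alternatives, to 0.44 for PSAP. The median log2 fold change was 0.26. PSAP (ENSG00000197746.9), the precursor of the saposins that help hydrolases degrade sphingolipids, had 445, 406 and 410.3 CPM in minocycline replicates 1, 2 and 3, and 370.5, 270 and 287 CPM in control replicates 1, 2 and 3. All 3 minocycline libraries were above all 3 control libraries, and control replicate 1 was the highest control. The log2 fold change was 0.44 ± 0.15 (SE; 95% interval 0.10 to 0.78; adjusted p = 0.82). In GRCh37, the coordinates of hg19, PSAP occupies positions 73576055 to 73611008 of chromosome 10 (minus strand).

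CTSD (ENSG00000117984.8), the aspartic protease cathepsin D, had 185, 162 and 203 CPM in the minocycline libraries and 156, 145 and 137 CPM in the control libraries. The groups did not overlap, and the log2 fold change was 0.33 ± 0.13 (adjusted p = 0.82). CTSD occupies positions 1773982 to 1785803 of chromosome 11, where 22.9% of its annotated exon bases are shared with the same-strand gene ENSG00000250644 and 23.4% with the opposite-strand RNA gene PRADX, so its level depends on how shared reads were counted. CTSL, the cysteine protease cathepsin L (chromosome 9, 90338966 to 90346384, plus strand), had 38.7, 39.7 and 45.0 CPM with minocycline and 35.4, 32.8 and 30.4 CPM in controls. Its groups did not overlap either, and the log2 fold change was 0.32 ± 0.14 (adjusted p = 0.82).

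CTSB, the cysteine protease cathepsin B, had 86.6, 80.3 and 84.2 CPM with minocycline and 74.5, 67.5 and 67.4 CPM in controls, a log2 fold change of 0.26 ± 0.12. HEXA, the alpha subunit of beta-hexosaminidase, had 30.4, 31.5 and 34.8 CPM with minocycline and 25.9, 27.3 and 26.8 CPM in controls, a log2 fold change of 0.27 ± 0.13. The libraries of these genes were also ordered by group, with adjusted p = 0.82 for each. The other 4 overlapped between groups: the protective protein cathepsin A gene CTSA showed 0.20 ± 0.14, the glycogen-degrading glucosidase gene GAA 0.19 ± 0.13, the galactosidase gene GLA 0.09 ± 0.13 and the carboxypeptidase gene CTSZ 0.01 ± 0.13. Of CTSZ's exon bases 31.7% are shared with NELFCD on the opposite strand, and CTSZ ranged from -0.07 to 0.12 over the 17 alternatives. In all, 22 of the 41 genes share exon bases with another counted gene, 18 with one on the opposite strand. Whether reads were counted by strand is not known here, so such levels are uncertain.

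Summed over the 9 genes, hydrolase and saposin transcripts came to 1065, 965 and 1061 CPM in the minocycline libraries and to 902, 799 and 799 CPM in the control libraries. The means were 1030.7 ± 56.6 and 833 ± 59.6 CPM (SD, n = 3 each), which is 23.7% more with minocycline. PSAP alone supplied more than any other gene to these sums and to the difference between them. Its means were 420.3 ± 21.2 CPM with minocycline and 309.3 ± 53.75 CPM in controls (SD, n = 3 each). The 23.7% is therefore not the rise of each gene. Within the 3 batches the sum was higher with minocycline by 163, 167 and 262 CPM.

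**Figure D2:**
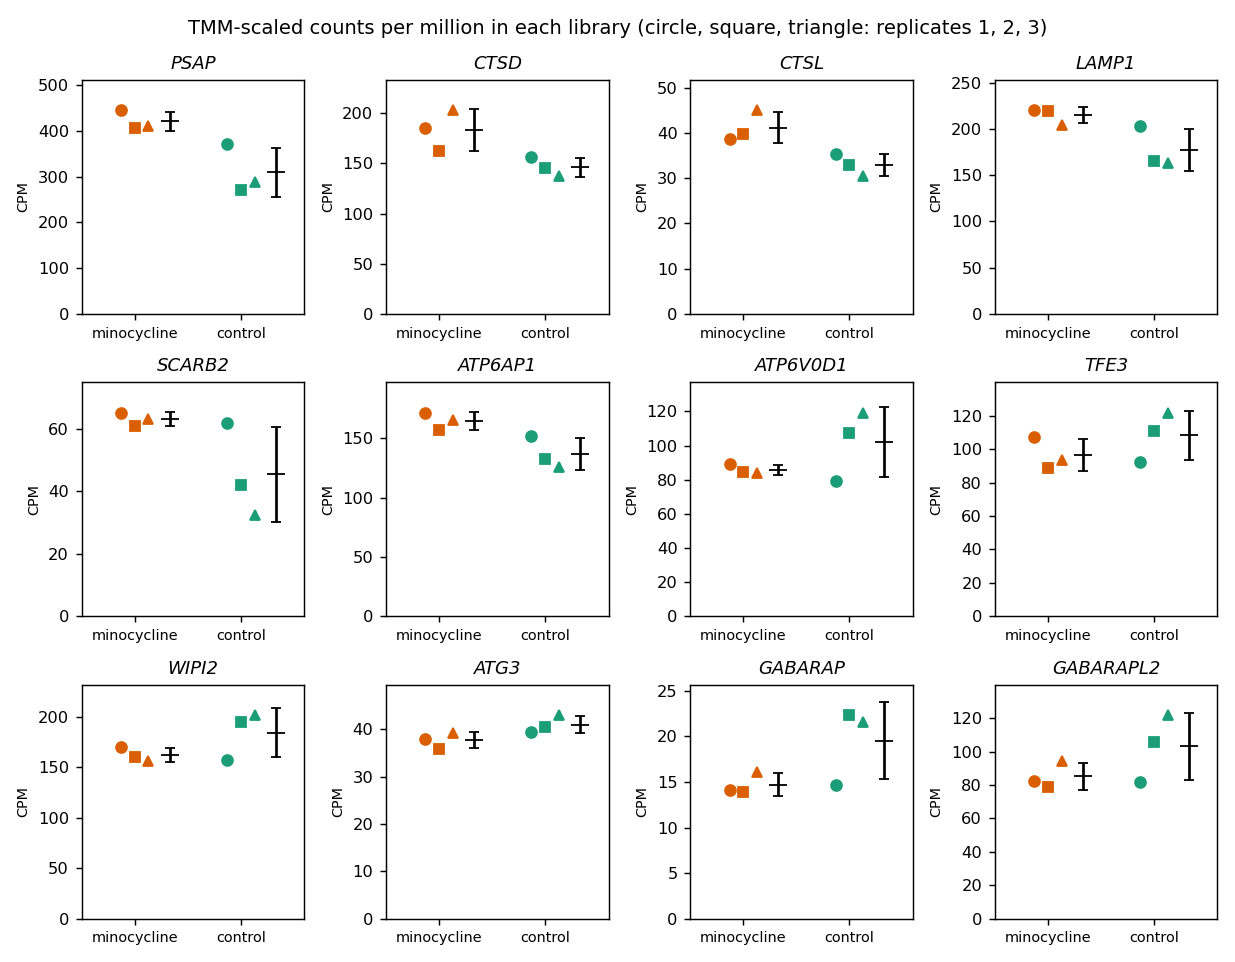
TMM-scaled CPM (axis from 0) of 12 genes in each library, minocycline left and control right, with the mean and SD (n = 3 per group) at the side. PSAP, CTSD, CTSL, LAMP1 and ATP6AP1 separate upward by group, ATG3 separates downward, and in SCARB2, ATP6V0D1, TFE3, WIPI2, GABARAP and GABARAPL2 control replicate 1 (circle) lies beside the minocycline libraries.

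The 4 lysosomal membrane genes had higher fitted levels, with a median log2 fold change of 0.31. LAMP1, an abundant glycoprotein of the lysosome membrane, had 220.1, 219 and 204.5 CPM in the minocycline libraries and 203, 165 and 163 CPM in the control libraries. The groups were separate by a small margin between minocycline replicate 3 and control replicate 1, and the log2 fold change was 0.28 ± 0.13 (adjusted p = 0.82). MCOLN1, the calcium channel whose product is mucolipin 1, had 40.98, 37.3 and 38.1 CPM with minocycline and 34.6, 35.2 and 36.2 CPM in controls, also without overlap, at 0.13 ± 0.13 (adjusted p = 0.832).

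SCARB2, which encodes the receptor LIMP-2 that carries glucocerebrosidase to lysosomes, had the highest fitted value of the 41 genes, 0.47 ± 0.21 (95% interval 0.00 to 0.95, adjusted p = 0.82). It had 65.1, 60.9 and 63.3 CPM with minocycline and 61.8, 42.0 and 32.3 CPM in controls. The minocycline libraries were close together, the controls were spread, and control replicate 1 lay among the minocycline libraries. LAMP2, a membrane glycoprotein that also serves chaperone-mediated autophagy, had 52.7, 61.2 and 53.6 CPM with minocycline and 59.9, 38.8 and 34.2 CPM in controls, at 0.33 ± 0.20 (adjusted p = 0.82). For LAMP2 the sign differed between batches, with log2 differences of -0.19, 0.66 and 0.65 in batches 1, 2 and 3.

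The 6 V-ATPase genes were divided, 3 higher and 3 lower, with a median log2 fold change of 0.01. ATP6AP1, an accessory protein needed to assemble the pump, had 172, 157 and 165.5 CPM with minocycline and 152, 133 and 126 CPM in controls. Its groups did not overlap, and the log2 fold change was 0.26 ± 0.12 (adjusted p = 0.82). ATP6V0D1, a subunit of the membrane sector, had 89.2, 84.3 and 84.0 CPM with minocycline and 79.3, 107 and 119 CPM in controls, at -0.25 ± 0.16, and ATP6V0A1, the largest subunit of that sector, had 95.3, 99.1 and 82.6 CPM with minocycline and 103, 65.1 and 64.6 CPM in controls, at 0.25 ± 0.19. In both, control replicate 1 departed from the other controls toward or past the minocycline libraries. The catalytic sector genes ATP6V1A, ATP6V1B2 and ATP6V1H showed 0.04 ± 0.13, -0.01 ± 0.13 and -0.04 ± 0.13, and each took the opposite sign in 5, 4 and 2 of the 17 alternatives, library size scaling among them for ATP6V1B2 and ATP6V1H.

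The transcription factors of the family were present at unequal levels. Per kb of exon, TFE3 had 22.9 ± 2.29 CPM with minocycline and 25.7 ± 3.53 CPM in controls (SD, n = 3 each). TFEB had 1.71 ± 0.141 CPM per kb with minocycline and 1.88 ± 0.439 in controls, and MITF had 0.984 ± 0.165 with minocycline and 1.03 ± 0.331 in controls. TFE3 counts were 107, 88.6 and 93.5 CPM with minocycline and 92.3, 110.5 and 122 CPM in controls, a log2 fold change of -0.17 ± 0.14 (adjusted p = 0.829). TFEB had 11.8, 10.4 and 12.3 CPM with minocycline and 9.35, 13.5 and 15.1 CPM in controls, at -0.14 ± 0.20, and MITF showed -0.07 ± 0.26. The groups overlapped in all 3 genes. With 1 surrogate variable in the model TFEB showed 0.10, and MITF ran from -0.31 to 0.19 over the alternatives. These factors act mainly through their location in the cell, which RNA counts do not measure.

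The 9 genes of autophagy initiation had fitted changes between -0.19 and 0.13 and all overlapped between groups. The kinase genes ULK1 and ULK2, which start the process, showed 0.02 ± 0.14 and 0.13 ± 0.13. ULK1 had 209, 185 and 157 CPM with minocycline and 186, 179.5 and 177 CPM in controls, so that the minocycline libraries lay on both sides of the controls. ATG13, a scaffold of the ULK complex, showed -0.11 ± 0.13. BECN1 and ATG14, which join the lipid kinase complex that marks the site, showed 0.01 ± 0.12 and 0.12 ± 0.14, and UVRAG showed -0.09 ± 0.15. ATG9A, a lipid scramblase that supplies membrane, showed 0.09 ± 0.13.

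WIPI1 and WIPI2 read the lipid mark, and WIPI2 recruits ATG16L1 to it. WIPI2 had 170, 160.2 and 156.5 CPM with minocycline and 157, 195 and 202 CPM in controls, the smallest unadjusted p of the initiation genes (0.199) at -0.19 ± 0.13. WIPI1 had 10.5 ± 0.9 CPM with minocycline and 10.7 ± 2.55 CPM in controls (SD, n = 3 each), a log2 fold change of -0.03 ± 0.21, with the opposite sign in 7 of 17 alternatives, and 24.4% of its exon bases are shared with ARSG on the opposite strand. Control replicate 1 was the lowest control library for both.

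The conjugation genes stayed close to 0. ATG7, the activating enzyme, showed 0.03 ± 0.15, ATG5, ATG12 and ATG16L1, which form the complex that completes lipid attachment, showed -0.01 ± 0.12, -0.03 ± 0.15 and -0.05 ± 0.15, and the transfer enzyme gene ATG3 showed -0.12 ± 0.13. ATG3 had 38.0, 35.9 and 39.3 CPM with minocycline and 39.5, 40.4 and 43.0 CPM in controls. These groups did not overlap, but minocycline replicate 3 and control replicate 1 were nearly equal, and the adjusted p was 0.844. For all 5 genes the 95% interval stayed within a 1.5-fold change.

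The 4 ATG8 genes had lower fitted levels, with a median log2 fold change of -0.23, although MAP1LC3B turned positive with 1 surrogate variable. The median log2 difference of the 4 genes was 0.04, -0.36 and -0.34 within batches 1, 2 and 3, so batch 1 did not show it. GABARAP had 14.2, 13.9 and 16.1 CPM with minocycline and 14.7, 22.3 and 21.6 CPM in controls, the lowest fitted value of the 41 genes at -0.41 ± 0.19 (95% interval -0.83 to 0.02; adjusted p = 0.82). GABARAPL2 had 82.2, 78.8 and 94.5 CPM with minocycline and 82.1, 106 and 122 CPM in controls, at -0.28 ± 0.16 (adjusted p = 0.82). In both genes control replicate 1 fell among the minocycline libraries while control replicates 2 and 3 stood above them. Within batches 1, 2 and 3 the log2 difference was -0.06, -0.68 and -0.42 for GABARAP and 0.00, -0.42 and -0.36 for GABARAPL2.

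GABARAPL1, another member of the GABARAP branch, had 55.6, 49.6 and 56.4 CPM with minocycline and 52.9, 60.6 and 69.9 CPM in controls, at -0.18 ± 0.14. MAP1LC3B, which encodes the common autophagosome marker LC3B, had 103, 102 and 118 CPM with minocycline and 92.4, 124 and 124 CPM in controls, at -0.07 ± 0.15 (adjusted p = 0.909), and its fitted change was 0.00 with library size scaling and 0.09 with 1 surrogate variable. The near copies MAP1LC3B2 and GABARAPL3 held at most 1 and 4 counts in any library. GABARAP shares 35.4% of its exon bases with the same-strand gene ENSG00000262526, so its level is uncertain. The cargo receptor gene NBR1 showed 0.02 ± 0.12 (adjusted p = 0.967).

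In mouse fibroblasts, ATF4 and its partner CHOP are known to drive a set of autophagy genes when amino acids are short. Of the genes of that set, 10 are among the 41: MAP1LC3B, GABARAP, GABARAPL2, BECN1, ATG3, ATG5, ATG7, ATG12, ATG16L1 and NBR1. They were grouped after their values had been seen. In these libraries 3 had a higher fitted level and 7 a lower one, from -0.41 to 0.03, with a median of -0.04 and 0 past the threshold. The groups did not overlap for 1 of them, ATG3, which lay below. Among all genes tested 5.74% lay above and 3.56% below, so 1 gene does not set this group apart.

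Levels per kb of exon spanned from 0.984 ± 0.165 (MITF) to 135 ± 6.81 (PSAP) CPM with minocycline and from 1.03 ± 0.331 (MITF) to 99.3 ± 17.3 (PSAP) CPM in controls (SD, n = 3 each). PSAP was the highest in each group. In controls GABARAPL2 (34.3 ± 6.62), LAMP1 (30.8 ± 3.96), ATG13 (29.4 ± 2.86) and ATG9A (29.4 ± 1.96) followed, and these neighbours did not differ beyond their spread. With minocycline LAMP1 (37.4 ± 1.51), CTSD (32.2 ± 3.62) and ATG9A (31.3 ± 2.86) came next, of which CTSD and ATG9A were within their spread. The lowest in controls were TFEB (1.88 ± 0.439), HEXA (1.68 ± 0.0438) and MITF. Exon length was the total over annotated exons, 15893 bases for HEXA and 19388 for SCARB2, and this lowers the value of a gene whose annotated exons are mostly unused.

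**Figure D3:**
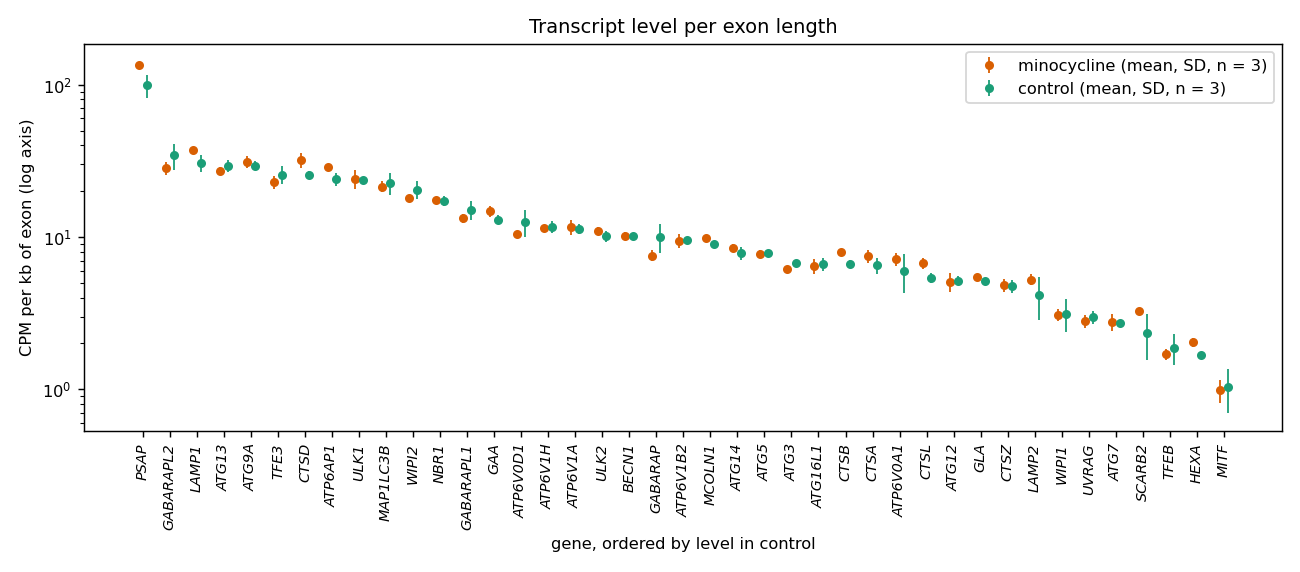
CPM per kb of annotated exon (log axis) of the 41 genes, ordered by their level in control libraries, as mean and SD (n = 3 per group; minocycline left of control for each gene). PSAP stands alone at the top with 135 CPM per kb with minocycline and 99.3 in controls, and MITF is last with 0.984 and 1.03.

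To set lysosome against autophagy genes in each library, the median deviation from the gene means (log2 CPM) was taken over each list. It was 0.129, 0.072 and 0.132 in minocycline replicates 1, 2 and 3 and 0.014, -0.102 and -0.181 in control replicates 1, 2 and 3 for the 19 lysosome genes. For the 19 autophagy genes it was -0.002, 0 and -0.055 with minocycline and -0.016, 0.014 and 0.066 in controls. The lysosome values did not overlap between groups, while the autophagy values did. The difference, lysosome minus autophagy, was 0.131, 0.072 and 0.187 with minocycline and 0.03, -0.116 and -0.248 in controls. No test was made of these values, because the genes were chosen with results of these data known.

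Within batches 1, 2 and 3 the difference between lysosome and autophagy values was greater with minocycline by 0.101, 0.188 and 0.435. Of the 19 lysosome genes 15, 15 and 16 were higher with minocycline in batches 1, 2 and 3, and of the 19 autophagy genes 11, 10 and 5 were. All 3 batches gave a higher value for 11 lysosome genes and 2 autophagy genes (ULK2 and ATG9A). Over all genes tested the median difference was 0.02, 0.02 and 0.01 in batches 1, 2 and 3, and genes higher in each batch were not counted. Control replicate 1, which had the lowest ribosomal protein share of the controls, also had the highest lysosome value of the controls and the lowest autophagy value of the controls. It was the control nearest to the minocycline mean for 14 of 19 lysosome genes and 9 of 19 autophagy genes. That count was not made over all genes, so it does not set either list apart.

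**Figure D4:**
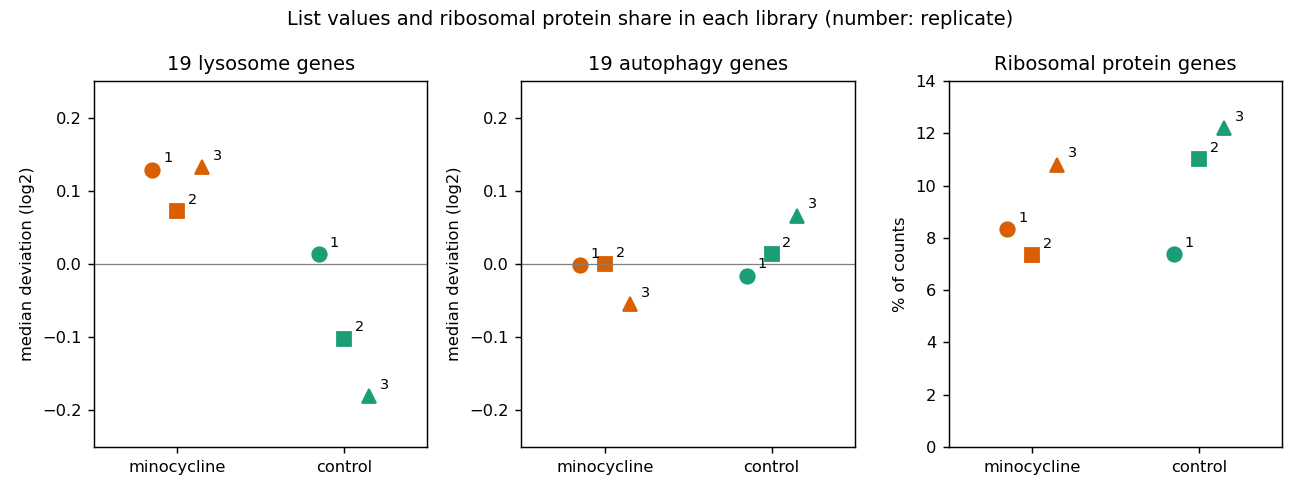
Median deviation from the gene means (log2 CPM) over 19 lysosome genes and over 19 autophagy genes, and the share of counts in ribosomal protein genes, in each library (numbers give the replicate; minocycline left, control right). Lysosome values are 0.072 to 0.132 with minocycline and -0.181 to 0.014 in controls; the autophagy values and ribosomal shares overlap between groups.

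Without control replicate 1, 10 of the 41 genes passed over all genes. Higher with minocycline were PSAP, CTSD, LAMP1, LAMP2, SCARB2, ATP6V0A1 and ATP6AP1 (adjusted p from 0.00316 to 0.0452), all 7 of them lysosome genes. Lower were ATP6V0D1, GABARAP and GABARAPL2 (adjusted p = 0.0251, 0.0159 and 0.029). In that setting 9.52% of all genes passed as higher and 8.34% as lower, and both remaining controls lay above every minocycline library on the first principal component. Why the calls increased was not tested. None of the 41 passed in any of the other 16 alternatives. Without this library the lysosome median was 0.27 and the autophagy median -0.04, but several single genes moved further. SCARB2 had a log2 fold change of 0.76 (0.47 with all 6 libraries), LAMP2 0.61 (0.33), ATP6V0A1 0.51 (0.25) and ATP6V0D1 -0.40 (-0.25).

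Beside the promoter letters given above, exon length and GC content were compared as a description. Median exon length was 6332 bases for lysosome and 6110 bases for autophagy genes, against 4742 for tested genes, and median GC content was 52.3% and 47.3%, against 48.3%. When counts were corrected in each library for the length and GC content of exons, the medians were 0.24 for lysosome and -0.08 for autophagy genes, and with 1 surrogate variable they were 0.17 and -0.02. The difference between them ran from 0.19 to 0.33 over the 17 alternatives.

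**Figure D5:**
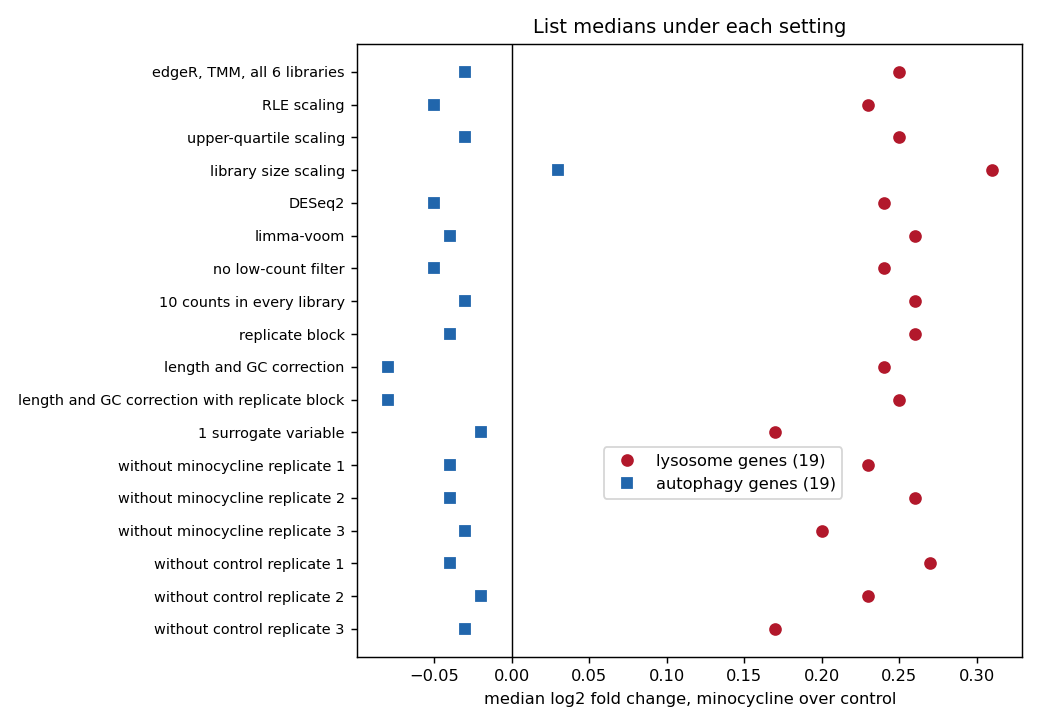
Median log2 fold change, minocycline over control, of 19 lysosome genes (circles) and 19 autophagy genes (squares) with all 6 libraries (top row) and in each of 17 alternative settings. Lysosome medians run from 0.17 to 0.31 and autophagy medians from -0.08 to 0.03.

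Further genes of the same pathways were read from lists made by function, with earlier results of these data known. Of 126 listed genes 125 had a row, 123 passed the filter, 73 had a higher and 50 a lower fitted level, and 0 passed the threshold. At an unadjusted p under 0.05, 8 of the 123 were higher and 2 lower, where 2.72% and 1.97% of all genes tested were. Among 30 other hydrolases and their cofactors 26 were higher, with a median log2 fold change of 0.24, and the groups separated upward in 11 and downward in 0, where 5.74% and 3.56% of all genes tested did. AGA, which cleaves asparagine-linked sugars, had 14.3 ± 1.42 CPM with minocycline and 9.51 ± 1.21 CPM in controls (SD, n = 3 each), at 0.59 ± 0.17 (adjusted p = 0.82). LGMN, the asparaginyl protease legumain, had 55.2 ± 1.58 CPM with minocycline and 39.9 ± 6.51 CPM in controls, at 0.47 ± 0.15 (adjusted p = 0.82). NEU1 and CTSF did not pass the filter.

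Among 22 other lysosomal membrane and sorting genes 21 were higher, with a median of 0.29. The groups separated upward in 2 of them (SLC17A5 and TPCN1) and downward in 0, where 5.74% and 3.56% of all genes tested did. Within batches 1, 2 and 3 the median log2 difference of the 22 genes was 0.05, 0.4 and 0.34, so batch 1 showed little of it. SLC17A5, the sialic acid exporter, showed 0.38 ± 0.15, and the channel gene TPCN1 0.33 ± 0.15 (adjusted p = 0.82 for both). The median log2 fold changes of both lists were smaller with 1 surrogate variable, at 0.17 for the hydrolases and 0.14 for the membrane genes. They were 0.25 and 0.25 with the length and GC correction. Without control replicate 1 they were 0.34 and 0.48, and 10 of the 30 hydrolases and 12 of the 22 membrane genes passed as higher and 0 of either as lower, where 9.52% of all genes passed as higher.

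Of 11 other V-ATPase genes 9 were lower, with a median of -0.24. ATP6V1E1, a stalk subunit, had 125, 128 and 141 CPM with minocycline and 129, 184 and 190 CPM in controls, at -0.35 ± 0.16. The accessory protein gene ATP6AP2 went the other way, with 89.2, 95.7 and 105 CPM with minocycline and 89.2, 57.0 and 51.0 CPM in controls, at 0.56 ± 0.20 (adjusted p = 0.82). Control replicate 1 lay at or beside the minocycline libraries in both. With 1 surrogate variable the median of these 11 genes was -0.10. Without control replicate 1 it was -0.34, with 2 passing as higher and 4 as lower. Of all genes in that setting, 9.52% passed as higher and 8.34% as lower.

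Other autophagy genes also had medians near 0. Of 25 further machinery genes 10 were higher and 15 lower, with a median of -0.02, and those with the smallest p were the fusion protein gene VAMP8 (-0.41 ± 0.21, adjusted p = 0.82) and the ULK complex gene ATG101 (-0.27 ± 0.15, adjusted p = 0.82). Of 12 measured receptor genes 7 were higher and 5 lower, with a median of 0.03, and the smallest p were those of the mitophagy receptor gene FUNDC1 (-0.34 ± 0.19) and the endoplasmic reticulum receptor gene RETREG1 (0.35 ± 0.20). SQSTM1, the receptor p62, had 164, 159 and 141.5 CPM with minocycline and 144, 158 and 188 CPM in controls, at -0.07 ± 0.14, and was picked out after its values had been seen. Without control replicate 1, 3 of the 25 machinery genes passed as higher and 2 as lower, and 3 of the 12 receptor genes as higher and 1 as lower. Among all genes 9.52% passed as higher and 8.34% as lower there. The calls in these lists are few, and whether they differ from those shares was not tested.

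Of 23 genes of mTORC1 and its lysosomal regulators 7 were higher and 16 lower, with a median of -0.11. LAMTOR5 and LAMTOR4, subunits of the Ragulator complex that anchors mTORC1 to the lysosome, had the smallest p, at -0.54 ± 0.20 and -0.53 ± 0.23 (adjusted p = 0.82 for both). LAMTOR5 had 44.7, 40.2 and 58.9 CPM with minocycline and 52.5, 71.9 and 84.9 CPM in controls, and control replicate 1 again lay among the minocycline libraries. Without control replicate 1, the median was -0.17, and 7 of the 23 passed as lower and 2 as higher, where 8.34% of all genes passed as lower and 9.52% as higher. With 1 surrogate variable the median was -0.04.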

How the data were processed

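RNA from 6 HEK293 libraries was sequenced as paired-end reads, prepared with the NEBNext Ultra II kit, per the labels' protocols. The authors deposited whole-number counts per gene, not normalized, for 57820 versioned Ensembl identifiers. The build was hg19, per the submitters' processing notes, and the aligner, counter, annotation and strandedness are not given in the sources used here. Symbols came from a gene name table (55538 identifiers matched, 99.1% of counts). Positions, exon lengths and GC content came from GENCODE v44 mapped to GRCh37.

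Genes were filtered with filterByExpr, scaled by TMM and tested with edgeR 4.0.16 (glmQLFit and glmQLFTest, R 4.3.3), minocycline against control with treatment as the single term, and p-values were adjusted by Benjamini-Hochberg over all genes tested (threshold 0.05). CPM (counts scaled to library size) use TMM factors, and log2 CPM of single libraries used a prior count of 2. The standard error is the log2 fold change divided by the square root of F, and intervals use the test's degrees of freedom. The ratio of chi-square to its degrees of freedom between libraries of the same treatment was 5.8 to 63.6, above sampling noise. It was 43.1 and 63.6 for control replicate 1 against control replicates 2 and 3, and 5.8 between control replicates 2 and 3. Between minocycline libraries it was 8.89 to 22.5. The 41 genes and the other lists were chosen with earlier results of these data known, so lists are described by counts and medians and were not tested. Within them, named genes are all 41 and, of each other list, the 2 with the smallest unadjusted p. The symbols of NCOA4, NEFL and PECAM1 matched no row.

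Same-numbered libraries share a batch, per the labels. Their deviations from the group means correlated by -0.05, -0.29 and 0.30 in pairs 1, 2 and 3 across genes. Pairs with unlike numbers ran from -0.42 to 0.5, the highest being minocycline replicate 2 with control replicate 1, so the pairing rests on the label. Alternatives were scaling by RLE, by the upper quartile or by library size, limma-voom (limma 3.58.1), DESeq2 1.42.0, no filter, 10 counts in every library, the replicate block, splines (4 degrees of freedom) on exon length and GC content with and without the block, 1 surrogate variable (sva 3.50.0) and each library left out.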

Additional observations from a re-analysis of the deposited data

How the results depend on the processing

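None of the 41 genes passed in 16 of 17 alternatives, and 10 did without control replicate 1; leaving out each library gave 0 to 10. The number of all genes called was 9, and 1 to 3154 with a library left out. It was 50 with DESeq2, 94 without a filter, 32 with the length and GC correction, 34 with that correction and the replicate block, and 91 with 1 surrogate variable. With the replicate number as a block it was 13, the medians were 0.26 for lysosome and -0.04 for autophagy genes, and no call of the 41 changed. The lysosome median of 0.25 was 0.17 with 1 surrogate variable and 0.17 to 0.27 with a library left out, lowest without control replicate 3. The autophagy median of -0.03 was 0.03 with library size scaling (where that of all genes was 0.08, against 0.01), -0.08 with the length and GC correction with or without the block, and -0.04 to -0.02 with a library left out. The difference between the medians stayed between 0.19 and 0.33. The fitted sign held in all 17 for 26 of the 41 genes, 15 of them lysosome and 10 autophagy genes. Standard errors of 0.12 to 0.26 on the log2 scale, from 87 to 8139 counts per gene and library, limit what single genes can show. The causes of these shifts were not tested.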
